A study of Mus musculus with 26 samples.

Results

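This report describes how the transcriptome of retinoic acid-treated mouse embryonic stem cells differed when Dux was knocked down, for genes outside the named list of 2-cell embryo (2C) genes. It rests on 4 of the 26 RNA-seq libraries of the series: 2 labelled Dux KD with retinoic acid (Dux KD RA) and 2 labelled WT with retinoic acid (RA). All were R1 mouse embryonic stem cells (mESCs) grown with LIF on gelatin, and both groups received 0.53 µM retinoic acid for 48 h before poly(A) RNA was taken. A further 2 WT libraries given only the solvent DMSO show where each gene stood without retinoic acid. Of 55291 genes in the table, 20953 had enough counts to be tested, and 20899 of those lay outside the 2C list. The labels do not say which hairpin was used, whether replicates were separate cultures, or that the RA cells carried a control hairpin. An effect of lowering Dux therefore cannot be told apart from other differences between the lines. The p-values measure only a spread between replicates that was pooled over all 26 libraries, and this spread may be technical.

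DUX is a double-homeobox transcription factor that is normally made briefly in the 2-cell embryo. In ESC cultures it switches on 2C genes and endogenous retroviruses in a small share of cells. Retinoic acid binds nuclear receptors at target genes, turns on Hox genes and its own degrading enzymes, and moves mESCs out of pluripotency, while low doses also favour 2C-like cells. Because these are bulk samples, fewer cells expressing a gene and less RNA per cell cannot be told apart.

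Duxf3, the mouse Dux gene in this annotation, was the check on the label. It stood at 2.16 and 2.75 CPM (read counts scaled by library size) in the RA libraries and at 0.919 and 0.354 CPM in the Dux KD RA libraries, so the groups did not overlap. The log2 fold change was -1.93 ± 0.46 (SE), with an adjusted p of 0.0015 (edgeR, quasi-likelihood, Benjamini-Hochberg), the test behind every adjusted p here. Without Dux KD RA replicate 2, the lower of the pair, it was -1.41 and no longer passed. Markers of ESCs were present in both groups. The core pluripotency genes summed to 4238 and 4256 CPM in the RA libraries and 4893 and 4859.6 CPM in the Dux KD RA libraries, against 8907 and 8959 CPM with DMSO. Of 12 fibroblast markers, which feeder cells would carry, 8 had enough counts to be tested, and the defining Col3a1 and Postn were at most 0.186 CPM in each of the 4 libraries. Their list summed to 199 and 224 CPM with retinoic acid and 124 and 122 CPM with the knockdown. Total counts were 20958447 and 20194105 in the RA libraries and 15480130 and 15092245 in the Dux KD RA libraries, in a series that ranged from 14401452 to 39402840, and 3 counts corresponded to between 0.132 and 0.177 CPM in these 4 libraries.

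Outside the 2C list, 1342 genes were called higher and 940 lower in the Dux KD RA libraries, where called means an adjusted p under 0.05 and a log2 fold change of at least 1 in size. Over all genes tested, 6.41% were called higher and 4.53% lower, 18% and 19.2% passed the adjusted p on the higher and lower side without the fold threshold, and the median log2 fold change was 0.02. These shares are the background for every count of list members given here. The 2C list itself, with 54 genes tested, had 2 called higher and 10 lower. Of the lists described here, glycolysis had 9 of 18 members called lower, HIF targets 6 of 14 and the Hedgehog pathway 4 of 10, while the trophectoderm, germline and KRAB zinc finger lists had larger shares called higher than all genes tested.

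**Figure D1:**
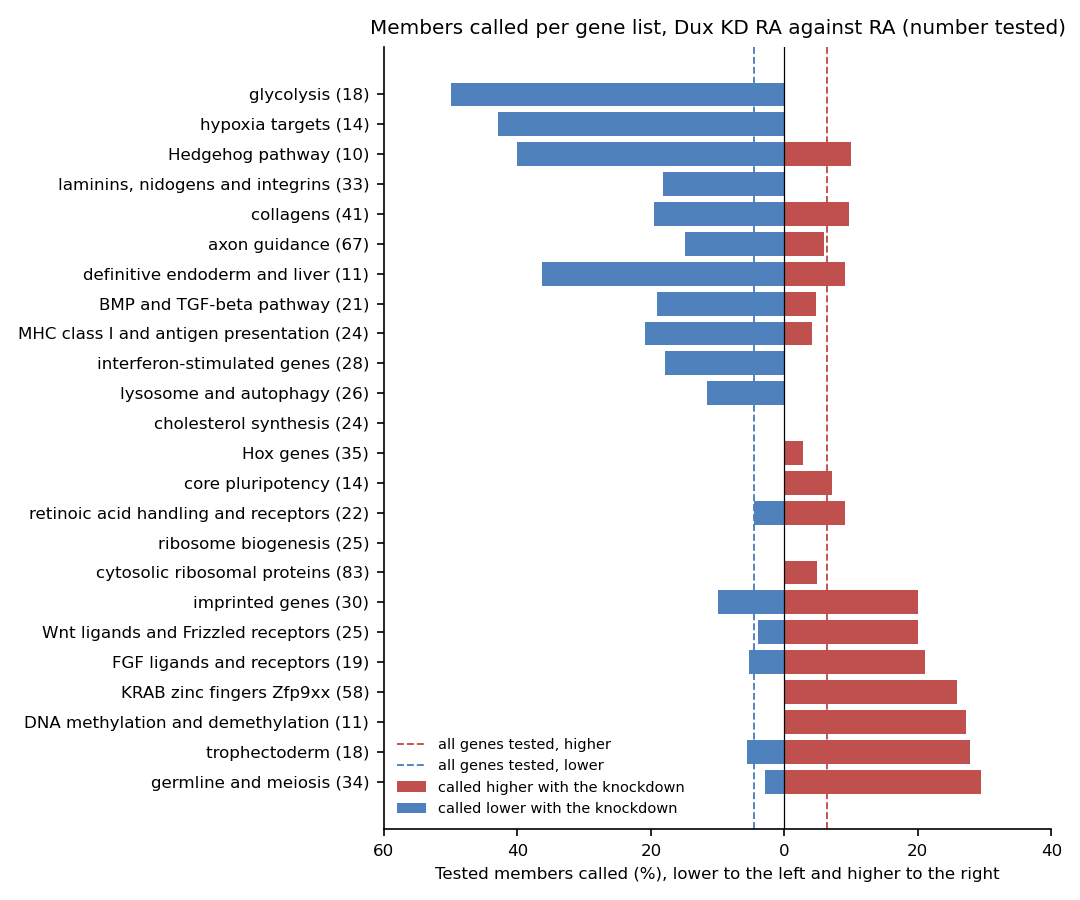
The bars give the percentage of tested members of each gene list called higher (right, red) or lower (left, blue) in Dux KD RA against RA, with the number tested in brackets and dashed lines at the 6.41% and 4.53% called among all genes tested. Glycolysis, with 9 of 18 members called lower, and the germline list, with 10 of 34 called higher, reach far past the dashed lines, while the Hox list has 1 of 35 called.

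Glycolysis converts glucose to pyruvate and lactate, and mESCs rely on it heavily. Its genes stood lower with the knockdown along the whole route, from glucose uptake to lactate export. Of 18 tested members, 9 were called lower and none higher, all 18 passed the adjusted p on the lower side, and the median log2 fold change was -1.05. Summed over the list, RA libraries held 19039 and 20280.2 CPM and Dux KD RA libraries 9875 and 9952 CPM, while DMSO libraries held 20035 and 19931 CPM.

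Slc2a1, a glucose transporter, stood at 1373 and 1557 CPM with retinoic acid and 394 and 399 CPM with the added knockdown. Slc16a3, which exports lactate, stood at 257 and 308 and then 78.9 and 84.9 CPM. In both genes every Dux KD RA library lay far below every RA library and also below the DMSO libraries, at 1037 and 1024 CPM for Slc2a1 and 166 and 177 CPM for Slc16a3. Their log2 fold changes were -1.89 ± 0.14 (adjusted p 1.1e-10) and -1.79 ± 0.16 (adjusted p 3.5e-09). For Slc2a1 this is a fold of 3.70. Slc2a3, a glucose transporter with higher counts, stood at 2859 and 3054 CPM with retinoic acid and 1963 and 1950 CPM with the knockdown. Its log2 fold change of -0.60 ± 0.10 (adjusted p 3.8e-05) did not reach the fold threshold.

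The enzymes between uptake and export stood lower too. Hk1, a hexokinase that traps glucose in the cell, fell from 248 ± 24.4 (SD, n = 2) to 106 ± 2.53 CPM, with a log2 fold change of -1.22 ± 0.13. Aldoa, which splits the 6-carbon sugar, fell from 1781 and 1845 to 822 and 825 CPM, and its relative Aldoc had the list's largest fall, from 52.3 and 58.8 to 10.9 and 10.8 CPM. Pgk1, the step that yields ATP after the sugar is split, fell by 1.17 on the log2 scale (SE 0.13, adjusted p 6.1e-08). Eno1 and Gpi1, which act further down and at the start of the route, had log2 fold changes of -1.09 ± 0.15 and -1.20 ± 0.12. Gapdh, often used as a reference gene, fell from 1025 and 713 to 372 and 370.1 CPM, although its RA libraries differed from each other, and without RA replicate 1 its log2 fold change was -0.94, short of the threshold. Lactate dehydrogenase A (Ldha, -0.95 ± 0.10), pyruvate kinase (Pkm, -0.92 ± 0.12) and Pgam1 (-0.42 ± 0.09) passed the adjusted p on the lower side without reaching the fold threshold.

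Hypoxia-inducible factor (HIF) is a known activator of several of these enzymes. Of 14 tested HIF target genes, 6 were called lower and none higher, with a median of -0.78. Ndrg1, a hypoxia-induced growth regulator, fell from 73.6 and 78.9 to 17.2 and 18.9 CPM (log2 -2.08 ± 0.18, adjusted p 1.8e-09). P4ha1, a collagen prolyl hydroxylase, fell from 254 and 264 to 96.2 and 93.9 CPM, and the oxygen-sensing hydroxylases Egln3 and Egln1 had log2 fold changes of -1.34 ± 0.20 and -1.23 ± 0.16. The list did not move as a block. Vegfa, the angiogenic growth factor, had a log2 fold change of -0.03 ± 0.13 (adjusted p 0.9), and the histone demethylase Kdm3a stood at 0.41 with an adjusted p of 0.01.

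The HIF binding core, ACGTG, was looked for on both strands of RefSeq promoter windows (GRCm38.p6) that run from 250 bases before to 50 after each start. It was chosen after the values were seen. A match lay in 14 of 28 windows of glycolysis genes and in 10 of 17 windows of hypoxia genes, against 19.6% of all 32851 windows, 24.0% of windows of tested genes and 22.2% of windows of genes called lower outside the 2C list. The 28 windows belong to 17 genes and the 17 to 13 genes, and overlapping windows can hold the same match. Both lists hold known HIF targets, so their shares reflect how the lists were made and say nothing about the knockdown. The 160 bases before the start, read towards the gene, are shown for the glucose transporter Slc2a1 and the enzymes Aldoa, Pgk1 and Ldha. Only genes with a match in these bases are shown, so they do not stand for the list. Where a gene had several windows (Aldoa 3, Ldha 2), the window with the most matches was printed. Hk1, Gapdh and Aldoc had matches after the start and none before it. ACGTG or its reverse complement CACGT is in capitals.
Slc2a1, chr4:119108585-119108744, plus strand: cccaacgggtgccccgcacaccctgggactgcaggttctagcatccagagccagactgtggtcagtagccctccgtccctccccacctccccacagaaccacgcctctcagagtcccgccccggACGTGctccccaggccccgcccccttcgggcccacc
Aldoa, chr7:126799255-126799414, minus strand: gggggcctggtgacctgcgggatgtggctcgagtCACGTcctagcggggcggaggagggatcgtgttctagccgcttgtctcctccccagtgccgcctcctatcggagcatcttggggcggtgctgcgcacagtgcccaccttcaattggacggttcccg
Pgk1, chrX:106186940-106187099, plus strand: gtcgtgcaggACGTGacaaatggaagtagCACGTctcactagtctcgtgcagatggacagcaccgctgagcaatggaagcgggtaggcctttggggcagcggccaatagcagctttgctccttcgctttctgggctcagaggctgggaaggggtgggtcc
Ldha, chr7:46845644-46845803, plus strand: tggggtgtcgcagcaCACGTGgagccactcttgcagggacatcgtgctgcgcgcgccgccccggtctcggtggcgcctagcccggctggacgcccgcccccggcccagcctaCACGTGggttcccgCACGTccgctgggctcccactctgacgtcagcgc
The matches describe these letters and not occupied sites. Pgam1, which had the smallest log2 fold change of the list, also has a match 114 bases before its start.

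Some Hedgehog pathway genes also fell with the knockdown. In this pathway a secreted ligand binds PTCH1, which releases SMO and lets GLI factors act. Ptch1 stood at 54.2 and 56.6 CPM with DMSO, 668 and 662 CPM with retinoic acid and 149 and 151 CPM with the knockdown. Gli1 stood at 43.2 and 44.8 CPM with DMSO, 59.5 and 61.9 CPM with retinoic acid and 13.6 ± 0.945 CPM (mean ± SD, n = 2) with the knockdown. Neither gene overlapped between the RA groups, and Gli1 with the knockdown was below its DMSO level while Ptch1 remained above it.

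The log2 fold changes were -2.15 ± 0.09 for Ptch1 (adjusted p 1.2e-15) and -2.15 ± 0.17 for Gli1 (adjusted p 3.9e-10). The activator Gli2 fell as well, with -1.12 ± 0.10. Hhip, which binds and sequesters Hedgehog ligands, moved the other way, from 11.5 and 11.5 CPM to 29.7 and 28.4 CPM (log2 1.34 ± 0.17), so 4 of 10 tested members were called lower and 1 higher. Smo, the signal transducer, had a log2 fold change of -0.22 ± 0.11 (adjusted p 0.13) and Gli3 of -0.08 ± 0.14. The ligand Shh was at 0.705 and 0.512 CPM with retinoic acid and 0.517 and 0.766 CPM with the knockdown, Ihh at 0.0441 and 0.326 and 0.287 and 0.412 CPM and Dhh at 1.59 and 1.49 and 1.38 and 0.648 CPM, all too low for a firm comparison. The 7 Hedgehog windows available held neither the GLI sequence TGGGTGGTC, which 0.253% of all windows hold, nor the HIF core. So few windows cannot show a lack of either sequence.

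**Figure D2:**
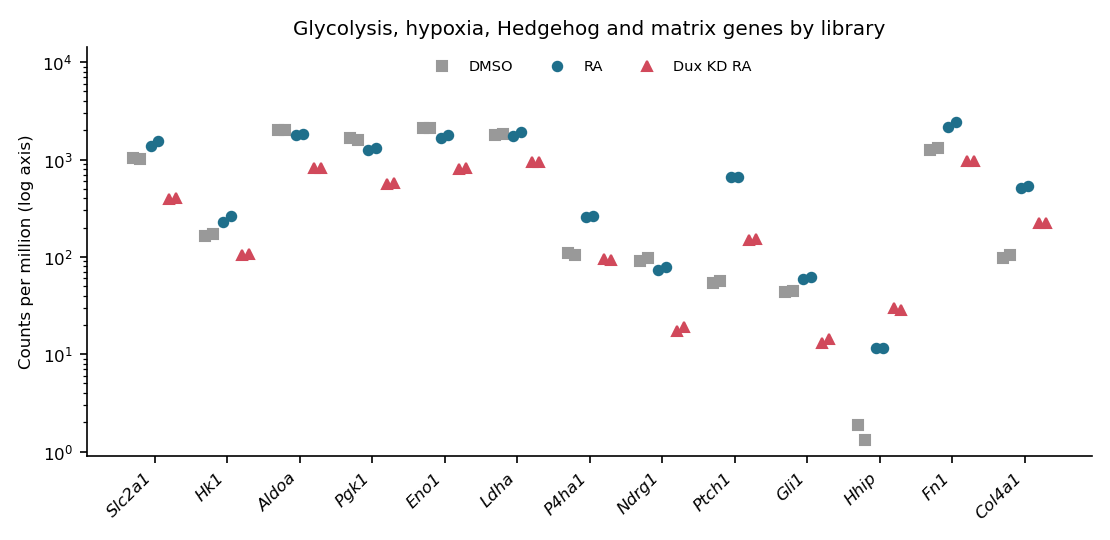
Each point is 1 library's CPM on a log axis, for glycolysis, hypoxia, Hedgehog and matrix genes in DMSO (grey squares), RA (blue circles) and Dux KD RA (red triangles). The knockdown triangles sit below the RA circles for every gene but Hhip, which reads 29.7 and 28.4 CPM with the knockdown and 11.5 and 11.5 CPM without.

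Genes of the extracellular matrix, the protein scaffold around cells, included several called lower when Dux was knocked down. Fn1, which encodes fibronectin, stood at 1240.5 and 1300.1 CPM with DMSO, 2138 and 2456 CPM with retinoic acid and 969 and 961 CPM with the knockdown. Col4a1, a chain of basement membrane collagen IV, stood at 98.1 and 105, 508 and 538 and 225 and 225 CPM in the same order. For Fn1 the knockdown values were below the DMSO level, and for Col4a1 they lay between the DMSO and RA levels. The log2 fold changes were -1.25 ± 0.08 and -1.22 ± 0.12, and that of Col4a2, the partner chain, was -1.35 ± 0.14.

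Among 41 collagen genes tested, 8 were called lower and 4 higher, with a median of -0.42, and with a correction for GC content (an offset per library, given with the GC values) 2 were called lower and 4 higher, so that the balance of calls turned, while leaving out 1 library at a time gave 2 or 3 called higher and 7 or 8 lower. The list's sum was 1604 and 1715 CPM in the RA and 826 and 832 CPM in the Dux KD RA libraries. Col5a2, a fibrillar collagen chain, fell by 2.28 on the log2 scale, whereas Col9a3 (1.31) and Col6a5 (2.81) rose. Of 33 laminin, nidogen and integrin genes, 6 were called lower and none higher, including Lama4 (-1.91) and Lamb2 (-1.60), which encode laminin chains. Tgfbi, a secreted matrix protein induced by TGF-beta, had one of the largest falls of all genes, from 149 and 160.1 to 24.8 and 26.5 CPM (log2 -2.59 ± 0.17, adjusted p 1.1e-11). The sum of the fibroblast list (12 genes, of which 8 were tested) moved the same way, as given above. Of the tested genes, Thy1 (29.5 and 35.2 to 6.38 and 5.95 CPM) and the matrix protease Mmp2 (64.4 and 70.5 to 26.2 and 27.3 CPM) were called lower. The part of fibroblasts in the matrix values was not tested.

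Axon guidance genes, which also steer cell movement outside the nervous system, held 10 members called lower and 4 higher of 67 tested, with a median of -0.43. The ephrins Efnb3 (-2.41) and Efna1 (-1.51), the semaphorin Sema3f (-2.02) and Slit2 (-1.23) fell, while the netrin receptor Unc5d (1.74) and Sema6a (1.73) rose. This list depended on the GC correction, under which 6 were called lower and 7 higher. Of 21 BMP and TGF-beta genes, 4 were called lower, among them the ligands Bmp7 (-1.84) and Tgfb1 (-1.79) and the BMP antagonist Chrd (-1.30), and 1 was called higher. Ccnd1, a cyclin that drives entry into the cell cycle and a Wnt target, fell from 48.1 and 51.0 to 14.1 and 14.5 CPM.

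Foxa1 and Foxa2, forkhead pioneer factors of endoderm, fell from 40.9 and 36.0 to 10.4 and 12.5 CPM and from 16.5 and 15.5 to 5.40 and 5.42 CPM. Sox17, another endoderm regulator, rose from 1.63 and 1.86 to 6.49 and 6.36 CPM (log2 1.88 ± 0.40, adjusted p 4.9e-04). The definitive endoderm list thus had 4 of 11 called lower, with the chemokine receptor Cxcr4 and the homeobox factor Prox1 the others, and 1 higher. The primitive endoderm list, which shares Foxa2 and Sox17 with it, had 4 of 26 in each direction (2 lower with the GC correction), with the endocytic receptors Cubn (2.14) and Lrp2 (1.32) called higher and the collagen IV chains called lower.

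Sox9, a regulator of neural crest and cartilage, fell from 39.3 and 39.2 to 7.58 and 8.07 CPM, with a log2 fold change of -2.33 ± 0.22. Sox10, another neural crest factor, had -2.18, or -1.21 and no call without Dux KD RA replicate 2, and Foxd3, which acts in crest and in ESCs, rose by 2.22. Lefty1, the feedback inhibitor of Nodal, fell from 118 and 118 to 38.5 and 38.2 CPM while Nodal itself stood at 0.05 (adjusted p 0.73). Of 26 neural lineage genes, Neurod1 (1.53) and Stmn2 (1.12) were called higher and none lower, with a median of 0.32, and Neurod1 lost its call without Dux KD RA replicate 2 (1.19) and without RA replicate 1 (0.64). None of the 15 blood and endothelial markers was called, although Sox18, an endothelial factor outside that list, fell by 3.26 on the log2 scale.

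Some genes of antigen presentation and innate immunity stood lower. B2m, the light chain of MHC class I, fell from 34.9 and 43.7 to 16.3 and 15.3 CPM (log2 -1.32 ± 0.16), with the nonclassical heavy chains H2-Q7 (-1.64) and H2-Q6 (-1.53). The classical heavy chains H2-D1 (-0.49) and H2-K1 (-0.40) were not called, and H2-M5 rose from 19.6 and 19.9 to 53.8 and 52.1 CPM. The H2-Q genes are near-identical copies, so how reads were divided among them is uncertain. Of 24 genes of the list, 5 were called lower and 1 higher. Of 28 interferon-stimulated genes 5 were called lower and none higher, or 3 to 4 lower when 1 library was left out, including the RNA sensor Ifih1 (-1.95) and the oligoadenylate synthetase-like Oasl2 (-1.96). C3, the central complement component, fell from 22.5 and 25.3 to 2.18 and 2.30 CPM, a fold of 10.6.

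Lysosomal genes mostly stood lower by less than the fold threshold. Of 26 tested, 20 passed the adjusted p on the lower side and none on the higher side, but only Grn, Hexa and Tfe3 reached the fold threshold. Grn, the precursor of granulin, fell from 199 and 214 to 76.0 and 76.2 CPM, Hexa, a subunit of beta-hexosaminidase, had a log2 fold change of -1.07, and Tfe3, a transcription factor of lysosomal genes, had -1.02. With the GC correction 2 were called lower, and Tfe3 also fell short without Dux KD RA replicate 1 (-0.99) and, just under the threshold, without RA replicate 2.

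On the higher side, trophectoderm genes, which mark the outer layer of the blastocyst, held 5 called higher and 1 lower of 18 tested, with a median of 0.52. Gata3, an early trophectoderm regulator, rose from 1.59 and 1.30 to 6.49 and 5.66 CPM (log2 2.07 ± 0.33, adjusted p 1.8e-05). Fgfr2, the receptor for embryonic FGF4 in that layer, rose from 16.3 and 17.6 to 35.7 and 38.6 CPM, and its ligand Fgf4, made by pluripotent cells, from 39.8 and 42.3 to 94.3 and 95.7 CPM. The keratin Krt7 and the homeobox genes Rhox6 and Rhox9 completed the 5, of which Krt7 lost its call without RA replicate 1 (0.76) and without either Dux KD RA replicate (1.09 and 1.14), and Krt19 fell by 1.21 on the log2 scale. Cdx2, which defines the trophectoderm, was not called and stood at 0.308 and 0.140 CPM with retinoic acid and 0.402 and 0.530 CPM with the knockdown. Of 27 keratin genes 4 were called higher and 1 lower, or 9 higher with the GC correction and 2 to 4 when 1 library was left out. For Krt5, an epidermal keratin at or under 3 counts in each RA library, the rise over the RA libraries was at least 7.47-fold against a floor of 3 counts per library.

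Germline genes held more calls than most lists. Of 34 tested, 10 were called higher and 1 lower, although the median was only 0.17. Hormad1, a protein of the meiotic chromosome axis, rose from 2.20 and 2.38 to 11.2 and 10.5 CPM (log2 2.24 ± 0.23, adjusted p 1.9e-08). Dazl, an RNA-binding protein of germ cells, rose from 58.4 and 47.2 to 114 and 112 CPM. Asz1 (2.68) and Fkbp6 (1.47) of the piRNA pathway and the cohesin Smc1b (1.70) rose as well, as did Sohlh2, Slc25a31, Tex19.2, Rpl10l and Sycp2. Rec8, a meiotic cohesin, fell from 144 and 149 to 45.4 and 46.2 CPM and was the exception in direction among the called members. With the GC correction 8 members were called higher and 3 lower.

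The KRAB zinc finger genes named Zfp9xx encode repressors of which many bind retroelements, and they lie in clusters. Of 58 tested, 15 were called higher and none lower, with a median of 0.65, and 32 passed the adjusted p on the higher side. Zfp970, the most strongly raised of the called members, went from 5.33 and 4.28 to 33.8 and 35.1 CPM (log2 2.84 ± 0.26). Summed over the list, CPM were 1186 and 1181 with DMSO, 772 and 732 with retinoic acid and 1243 and 1257 with the knockdown, so that the knockdown libraries stood near the DMSO level. The members called higher were 7 of 16 on chromosome 4, 3 of 7 on chromosome 2, 2 of 9 on chromosome 7, 1 of 13 on chromosome 17, 1 of 5 on chromosome 8 and 1 of 2 on chromosome 5. These genes are similar to each other and AT-rich, with a median GC content of 38.5%, and with the GC correction 8 were called higher and the median was 0.30.

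Some genes of de novo DNA methylation and pluripotency stood higher with the knockdown, with 3 of 11 DNA methylation and demethylation genes called higher and none lower. Dnmt3b, a de novo methyltransferase, was at 111 and 115 CPM with DMSO, 31.9 and 32.4 CPM with retinoic acid and 68.6 and 71.4 CPM with the knockdown. Tet2, which oxidises methylcytosine, was at 256 and 251, 59.1 and 61.1 and 212 and 212 CPM, and Dnmt3l, the cofactor of the de novo enzymes, rose from 9.43 and 9.69 to 28.8 and 30.6 CPM. For all 3 genes the knockdown libraries lay above the RA libraries, with log2 fold changes of 1.12 ± 0.10, 1.82 ± 0.14 and 1.64 ± 0.17. In the core pluripotency list 8 of 14 members passed the adjusted p on the higher side and 2 on the lower, but only Fgf4 was called, and Nanog, a central pluripotency factor, stood at 0.45 (adjusted p 1.6e-05).

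**Figure D3:**
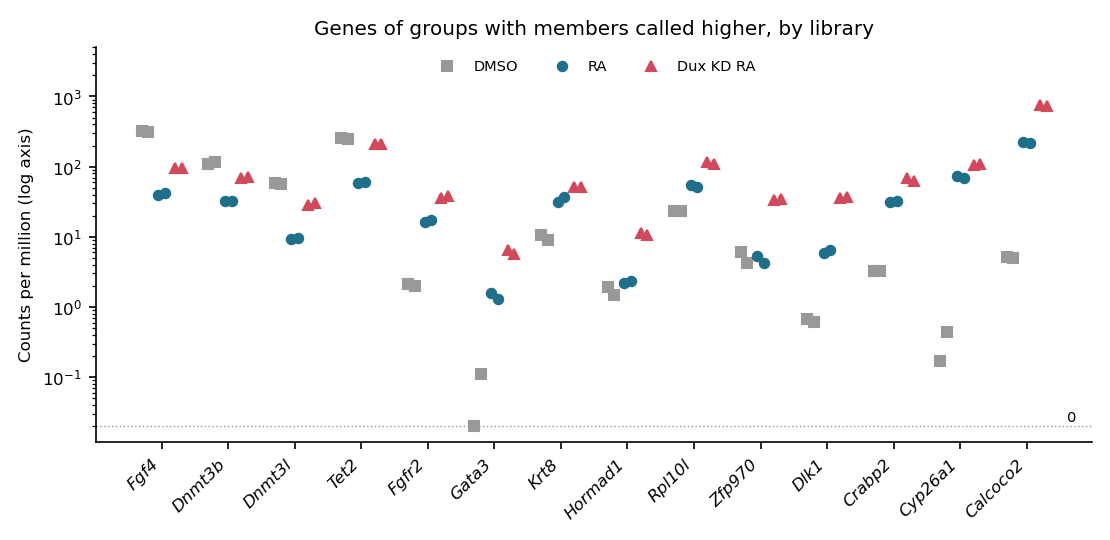
Each point is 1 library's CPM on a log axis, for genes of the groups with members called higher, in DMSO (grey squares), RA (blue circles) and Dux KD RA (red triangles), with a value of 0 drawn on the dotted line. Tet2 reads 212 and 212 CPM with the knockdown and 59.1 and 61.1 CPM without, near its DMSO level, while Calcoco2 reads 749 and 724 CPM and 223 and 214 CPM, both far above DMSO.

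Genes that carry out or report the retinoic acid response mostly were not called. Of 22 genes that bind, make or degrade retinoic acid, 2 were called higher and 1 lower, with a median of 0.01, and 1 was called higher when any 1 library was left out. Cyp26a1, the enzyme that degrades retinoic acid, stood at 72.6 and 68.6 CPM in the RA and 105 and 111 CPM in the Dux KD RA libraries, a log2 fold change of 0.61 ± 0.14 that passed the adjusted p (9.4e-04) without reaching the fold threshold. Rarb, a receptor that retinoic acid induces, stood at -0.08 (adjusted p 0.83). Crabp2, which carries retinoic acid to the nucleus, rose from 30.8 and 32.4 to 67.9 and 63.5 CPM, and the receptor Rara fell from 68.1 and 74.2 to 37.1 and 33.8 CPM, just at the fold threshold, at -0.94 without Dux KD RA replicate 2 or without RA replicate 2, and at -0.65 with the GC correction.

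Cyp26a1 and Rarb are the genes of this list whose promoter windows hold the direct repeat of the nuclear receptor hexamer spaced by 5 bases, a response element of retinoic acid receptors. They account for 2 of 33 windows, against 0.0974% of all windows. Repeats spaced by 1 and by 2 bases were searched as well and lay in 0 of the 33 windows. Neither gene was called, and the list was chosen for its part in the retinoic acid response. The matches therefore say nothing about the knockdown. The 160 bases before the start are shown with the repeat in capitals.
Cyp26a1, chr19:37697648-37697807, plus strand: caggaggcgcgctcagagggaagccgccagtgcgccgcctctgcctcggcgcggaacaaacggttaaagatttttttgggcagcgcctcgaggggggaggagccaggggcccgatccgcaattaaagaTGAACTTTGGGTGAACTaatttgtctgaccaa
Rarb, chr14:16575477-16575636, minus strand: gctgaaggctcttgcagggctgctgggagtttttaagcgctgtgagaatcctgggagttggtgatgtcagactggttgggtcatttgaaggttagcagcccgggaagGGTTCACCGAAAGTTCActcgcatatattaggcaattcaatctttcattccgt
Hox genes are the main targets of retinoic acid along the body axis. Of 35 tested, 1, Hoxc5, was called higher with the knockdown and none lower, and Hoxc5 lost its call without Dux KD RA replicate 1 (1.49) and without RA replicate 2 (1.25). Hoxb4, an early retinoic acid target, stood at -0.12. The Hox cofactor Meis2 rose from 15.7 and 14.3 to 44.5 and 43.4 CPM. The palindromic DUX binding motif was in none of the 727 windows of genes called higher and none of the 787 windows of genes called lower outside the 2C list, and in 0.0335% of all windows. With a motif this rare, sets of this size cannot show a lack of it, and no conclusion is drawn.

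Further genes rose outside these groups. Calcoco2, an autophagy receptor, stood at 5.16 and 5.04 CPM with DMSO, 223 and 214 CPM with retinoic acid and 749 and 724 CPM with the knockdown (log2 1.75 ± 0.14, adjusted p 3.5e-10). Perp, a p53 target of cell junctions, rose from 10.4 and 11.2 to 47.0 and 47.8 CPM, and Ccn2, a target of YAP, from 5.07 and 5.08 to 25.6 and 27.5 CPM. Dlk1, an imprinted gene expressed from the paternal allele, rose from 5.90 and 6.52 to 35.6 and 36.5 CPM, and the maternally expressed Rian of the same imprinted cluster had 2.30. Of 30 imprinted genes, 6 were called higher and 3 lower, the latter including Nnat (-1.73), a gene of the developing brain, and 1 to 3 were called lower when 1 library was left out. Of 25 Wnt ligand and Frizzled genes 5 were called higher, among them the ligand Wnt7b (1.82), and 1, the receptor Fzd2 (-1.22), lower, and 1 to 3 were called higher when 1 library was left out. Among the largest rises were the macrophage mannose receptor Mrc1 (0.793 and 0.466 to 9.19 and 7.90 CPM), aspartoacylase Aspa (0.837 and 0.838 to 10.3 and 11.4 CPM) and the antisense transcript Rbfaos (0.969 and 0.512 to 20.4 and 18.6 CPM). The counting setting for strand is not given in the sources used here, so reads of Rbfaos and of its sense partner cannot be told apart.

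In the pluripotency lists the calls fell in both directions. Of 20 naive pluripotency genes, the Prame-like Pramel6 (2.62) and Pramel7 (2.71) were called higher, and the signalling inhibitor Socs3 (-1.38) and the nuclear receptor Nr5a2 (-1.20) lower. Among 17 formative and primed genes, Otx2, Sall2 and Sox3, all transcription factors of the early epiblast or neural plate, were called lower with -1.11, -1.06 and -1.05, while Dnmt3b and Foxd3 were called higher. Pramel6 stood at 0.264 and 0.186 CPM with retinoic acid and 1.49 and 1.36 CPM with the knockdown, and Otx2 at 1.67 and 2.38 and 1.03 and 0.825 CPM, with no overlap in either gene. Otx2 fell short of the threshold without Dux KD RA replicate 2 (-0.96) and without RA replicate 2 (-0.84), and Sox3 without Dux KD RA replicate 2 (-0.90) and without RA replicate 1 (-0.92). The formative list had 1 called lower with the GC correction or with library size scaling only. The Prame-like genes lie in repeated copies, so their reads may be divided among them.

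Signal-responsive genes stood lower in part. Of 16 immediate early genes, which respond to growth factors within minutes, 3 were called lower and none higher, including Egr1 (7.88 and 6.89 to 2.30 and 2.30 CPM) and Jund (-1.26), and 1 was called lower with the GC correction. Of 16 Notch pathway genes the feedback regulator Nrarp (-1.33) and the ligand Dll3 (-1.07) were called lower, and Dll3 lost its call without either Dux KD RA replicate (-0.94 and -1.21) and without RA replicate 2 (-0.87). Of 14 Wnt feedback targets 3 were called lower, Ccnd1 with Nkd1 (-1.42) and Tcf7 (-1.18), while the secreted Wnt inhibitor Dkk1 rose from 0.529 and 1.02 to 4.88 and 5.66 CPM. Of 22 epithelial junction genes 3 were called lower, led by the P-cadherin gene Cdh3 (11.7 and 11.6 to 2.64 and 2.77 CPM), and 1, the desmosomal Pkp2 (1.32), higher, while 1 was called lower with the GC correction or with library size scaling only, and 1 to 3 when 1 library was left out. E-cadherin (Cdh1) stood at 0.04 (adjusted p 0.71).

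Several broad programmes had few calls. None of 25 ribosome biogenesis genes was called, although 18 passed the adjusted p on the higher side with a median of 0.36. Of 83 cytosolic ribosomal protein genes 4 were called higher and none lower, and these are genes with many processed copies in the genome. None of the 26 known regulators of Dux, none of the 12 heat shock genes and none of the 24 cholesterol synthesis genes was called, and 3 of 29 cell cycle genes were called lower. Of 22 p53 targets 1 was called in each direction, although 12 passed the adjusted p on the higher side and 3 on the lower. Their median was 0.37.

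The response to retinoic acid over DMSO uses the same RA libraries as the knockdown comparison, so a chance high value there would raise a gene in one and lower it in the other, and the values are given side by side with no test. Over all genes tested, retinoic acid had 20.6% called higher and 10.4% lower. Of 41 collagen genes 34 were called higher with retinoic acid and 1 lower, and the Hedgehog list had 5 of 10 higher. Glycolysis had 2 of 18 called lower and none higher with retinoic acid, so its fall with the knockdown came without a comparable difference between RA and DMSO. For Ptch1 the log2 fold changes were 3.58 for retinoic acid over DMSO and -2.15 for the knockdown, for Fn1 0.85 and -1.25, and for Tet2 -2.08 and 1.82. Calcoco2 had 5.42 and 1.75, higher in both.

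The knockdown was also measured with pladienolide B (PlaB, a splicing inhibitor, 4 nM for 4 days) and with Zscan4 overexpression, in libraries that share none of the 4 described here. The Zscan4 libraries without the knockdown are labelled with doxycycline at 4 µg/mL for 24 h. Those with the knockdown carry no doxycycline dose or time and were grouped by title. A difference in induction between them therefore cannot be told apart from the knockdown. With PlaB 26.1% of genes were called higher and 28.8% lower, and with Zscan4 overexpression 5.78% and 5.35%. Of the 1342 genes higher under retinoic acid, 269 were also higher with Zscan4 overexpression, which is 20.04% of them and 22.2% of the genes higher there, and 34 were lower there. With PlaB 366 were also higher, which is 27.3% of them and 6.69% of the genes higher there, but 403 were lower. Of the 940 lower genes, 172 (18.3%, and 15.9% of the other list) were also lower with Zscan4 overexpression, and 63 (6.70%) were higher there. With PlaB 237 (25.2%, and 3.95% of the other list) were also lower, but 327 (34.8%) were higher.

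Knockdown effects were also compared between backgrounds by tests of the difference. Glycolysis was called lower under retinoic acid relative to PlaB for 17 of 18 genes and relative to Zscan4 overexpression for 9 of 18, against 25.5% and 6.04% of all genes (26.6% and 6.22% differed in the other direction), and 10 of its genes were called higher with PlaB and none in either direction with Zscan4 overexpression. The HIF targets had 9 of 14 genes called lower under retinoic acid relative to PlaB, but none lower and 1 higher relative to Zscan4 overexpression, where the knockdown itself had 3 of 14 called lower. The Hedgehog list had 5 of 10 lower and 3 higher relative to PlaB, and 3 lower and none higher relative to Zscan4 overexpression. For Slc2a1 the difference from the Zscan4 effect was -0.93 ± 0.19 on the log2 scale (adjusted p 6.2e-04). For Ptch1 it was -1.80 ± 0.13 (adjusted p 4.2e-11), with a knockdown effect of -0.35 under Zscan4 overexpression. Calcoco2 rose with the knockdown in the Zscan4 background by 1.61 and had -4.16 with PlaB, a difference from PlaB of 5.91 ± 0.24. Tgfbi, -2.59 under retinoic acid, had 4.13 with PlaB and -0.43 with Zscan4 overexpression.

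Some features of the libraries moved with the comparison. The log2 fold change fell with the GC content of the transcript, with a median of 0.29 in the bin of genes lowest in GC (39.4%, of 10 bins) and -0.37 in the highest bin (59.5%), and a Spearman correlation of -0.336 across 14930 genes, which are not independent replicates. The RA replicates differed from each other along GC as well, with a correlation of 0.199, against 0.0130 between the Dux KD RA replicates. With a GC offset added to each library, an alternative chosen after the data were seen, 6.55% of genes were called higher and 3.47% lower, and 1164 of the 1344 higher and 642 of the 950 lower calls were kept. Slc2a1 stood at -1.70, Ptch1 at -2.17, Gli1 at -1.80 and Gata3 at 2.11 in that fit, while glycolysis had 6 members called lower in place of 9 and a median of -0.84. Among the genes named above, Aldoa, Eno1, Hk1, Egln1, Gli2, Col4a1, Col4a2, Hexa, Tfe3, Rara, Krt19, Fzd2, Stmn2, Dazl, Sycp2, Sall2, Sox3, Jund, Dll3 and (given below) mt-Nd3 and Xist fell short of the fold threshold in that fit, with sizes between 0.59 and 0.97 on the log2 scale. The part of GC content in the other results was not tested.

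**Figure D4:**
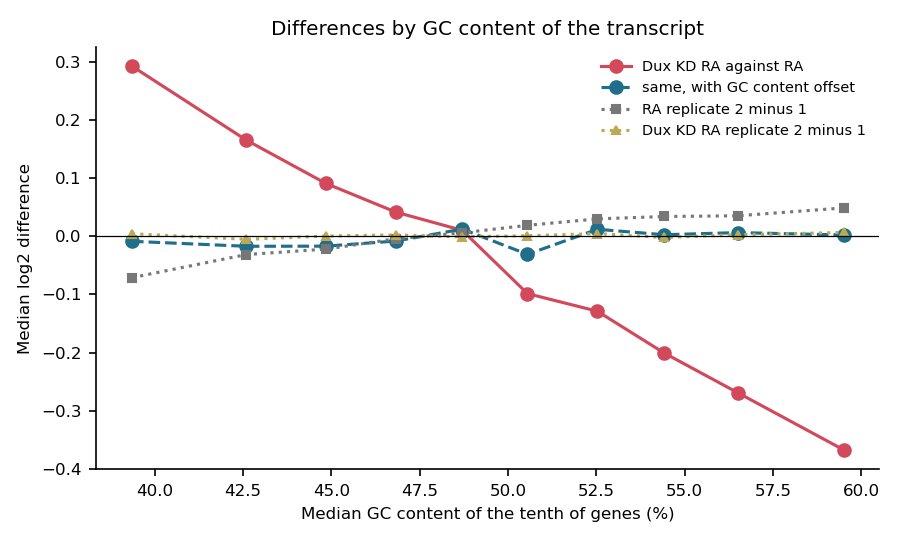
Median log2 difference (vertical) for genes in bins of equal size by transcript GC content (horizontal, percent), for Dux KD RA against RA (red), the same with the GC offset (blue dashed) and the differences between replicates (dotted). The red line runs from 0.29 at 39.4% GC to -0.37 at 59.5% GC, and the offset line stays near 0.

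Transcripts of different kinds moved unequally. Of 1499 processed pseudogenes 351 (23.4%) were called higher and 27 lower, while of 15549 protein-coding genes 649 (4.17%) were called higher and 810 (5.21%) lower. Processed pseudogenes share sequence with their parent genes, so the assignment of these reads is uncertain. Mitochondrially encoded genes split within 1 genome. Of 13 protein-coding genes 6 were called higher and 1 lower, or 4 higher and 3 lower with the GC offset. The 6 called higher adjoin each other, from mt-Co2 to mt-Nd4l. Their RA levels were low, with a mean of 91.6 CPM for mt-Co3 against 13192 CPM for mt-Co1. How reads were assigned within this genome was not tested. Complex I and cytochrome oxidase both had values on either side. The ATP synthase gene mt-Atp6 rose from 82.6 and 95.4 to 524 and 483 CPM, and the oxidase genes stood at 2.07 for mt-Co3 and -0.80 for mt-Co1 (adjusted p 1.9e-07). Among complex I genes mt-Nd3 (1.42) and mt-Nd4l (1.26) rose, mt-Nd2 fell from 3199 and 3849.9 to 1523 and 1488 CPM, and 12 of 15 mitochondrial tRNA genes and both ribosomal RNA genes were called lower.

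Chromosomes 2 and 3 stood apart. Among genes with a mean of at least 1 CPM, the median log2 fold change was 0.25 on chromosome 3 (69 of 705 called higher, 13 lower) and 0.12 on chromosome 2 (114 of 1169 higher, 44 lower), and from -0.15 (chromosome 7) to 0.10 (chromosome 13) on the other autosomes. With the GC offset the medians of chromosomes 3 and 2 were 0.22 and 0.18. Along chromosome 2, in 4 runs of equal gene number, the medians were -0.07, 0.18, 0.22 and 0.21, and along chromosome 3 they were 0.41, 0.13, 0.16 and 0.33. In the Zscan4 background the knockdown gave 0.02 on chromosome 3 and -0.12 on chromosome 2. With PlaB it gave 0.29 and 0.13, where other autosomes ran from -0.11 (chromosome 17) to 0.51 (chromosome 14). Retinoic acid over DMSO, which shares the RA libraries, gave -0.09 on chromosome 3 and -0.33 on chromosome 2. Other autosomes there ran from -0.33 (chromosome 17) to 0.41 (chromosome 1). Of the 10 germline genes called higher, Hormad1, Slc25a31 and Sohlh2 lie on chromosome 3 and Sycp2 on chromosome 2. Other genes named above that lie there include Crabp2 and Tet2 on chromosome 3 and Zfp970 and Dnmt3b on chromosome 2. DNA copy number was not measured, and its part in the values of these genes was not tested. Xist and Tsix, which overlap on opposite strands of the X chromosome, were both called higher, Xist from 1.85 and 2.42 to 3.85 and 4.95 CPM and Tsix from 1.28 and 1.21 to 3.10 and 3.42 CPM, and Xist fell short of the threshold without Dux KD RA replicate 2 (0.85) and without RA replicate 1 (0.86). Of 575 X-linked genes 50 were called higher and 24 lower.

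**Figure D5:**
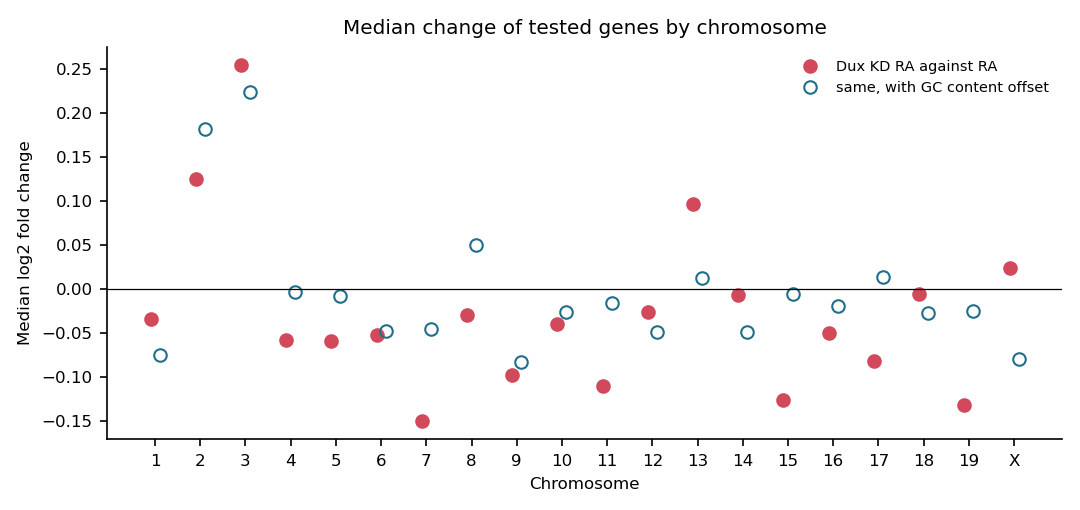
Median log2 fold change of Dux KD RA against RA for tested genes of each chromosome (horizontal), as fitted (filled red) and with the GC offset (open blue). Chromosome 3 reads 0.25 and 0.22 and chromosome 2 reads 0.12 and 0.18, while the other autosomes lie between -0.15 and 0.10 as fitted.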

How the data were processed

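The authors deposited 1 table of raw counts per gene for 26 libraries. Per the submitters' processing notes, reads were handled with FastQC, Trimmomatic, STAR and featureCounts against mm10, and DESeq2 was used; versions are not given in the sources used here. Groups were taken from the sample titles. Genes were kept by edgeR's filterByExpr (20953 of 55291) and tested with edgeR 4.0.16 (quasi-likelihood test, TMM, Benjamini-Hochberg adjustment) in R 4.3.3, with 1 model of 13 group means over all 26 libraries, 2 per group, and a common biological coefficient of variation of 0.0833. Fold changes are on the log2 scale, with errors from the same fit. CPM are the counts scaled to the library's total over tested genes, with TMM factors. RA and Dux KD RA replicates had chi-square values per degree of freedom of 3.63 and 1.55. Replicates with Zscan4 overexpression had 2.59 without the knockdown and 26.1 with it. No replicate pair thus agreed within sampling noise. The fit was tested on simulated data.

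Gene lists, members and the rule for named genes were chosen with earlier results of these data known. The text names Duxf3, for each list up to 4 called members in each direction and 2 uncalled ones, the 12 largest changes in each direction and the 5 most abundant called genes. Other members named, such as Hk1, Pgk1, Gpi1, Ldha, Pgam1, Vegfa, Cdx2, Dazl, Cyp26a1, Rarb, the Hedgehog ligands and the further germline and trophectoderm genes, were chosen after their values were seen, as were the HIF and GLI sequences. Lists are described by counts and medians, with no set test. Alternatives were other normalizations, no low-count filter, DESeq2 1.42.0, a replicate block, only the groups compared, leaving out libraries and a GC content offset (GC known for 97.6% of tested genes). SE KO RA replicate 1, which carries a WT genotype label, was left out of the fit in a further alternative. Promoter windows and sequences are from RefSeq (GRCm38.p6). Gene types and GC content are from GENCODE M21, matched by symbol. Some members of the lists are counted but not reported here by name.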

Additional observations from a re-analysis of the deposited data

Results flagged for a closer look

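The effect of the Dux knockdown differed between retinoic acid and the other 2 backgrounds in tests of the difference itself (edgeR quasi-likelihood test, adjusted p under 0.05 and a difference of at least 1 on the log2 scale). Between retinoic acid and PlaB 10929 genes differed, and between retinoic acid and Zscan4 overexpression 2569. The PlaB groups differ from the RA groups in agent and duration, which cannot be told apart here.

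Among the genes with the largest rises under retinoic acid, the effect there minus that with PlaB was 9.49 for Aspa, 7.70 for Fbp1, a gluconeogenic phosphatase, 7.37 for Pramef17, 5.85 for Rbfaos, 5.51 for Dkk1, a secreted Wnt inhibitor, and 4.91 for Mrc1. Among the most abundant genes that rose, it was 5.91 for Calcoco2 and 4.78 for Gabarapl2, a gene of autophagosome formation. Among genes that fell under retinoic acid it was -6.72 for Tgfbi, -4.15 for Fn1 and -3.57 for Plxdc1. Mitochondrial genes had -3.73 for mt-Nd2, -6.79 for mt-Tc, -8.29 for mt-Th, -6.25 for mt-Tn and -7.53 for mt-Tw, all transfer RNA genes apart from mt-Nd2. Against Zscan4 overexpression, the difference for mt-Tn was -4.93.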

How the results depend on the processing

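No named gene that was called reversed its direction under any alternative run. With the GC content offset, however, calls in the axon guidance list turned from 10 lower and 4 higher to 6 and 7, those in the collagens from 8 and 4 to 2 and 4, and the median turned from 0.18 to -0.12 for mitochondrially encoded genes and from -0.11 to 0.10 for the Nodal list. Without the fold threshold, genes called rose to 3782 higher and 4029 lower for the knockdown under retinoic acid, 3350 and 3489 under Zscan4 overexpression, 6766 and 5581 for retinoic acid over DMSO, and 6079 for the difference between the retinoic acid and Zscan4 backgrounds, since this setting drops a criterion. With only the groups of the contrast in the fit, the knockdown under Zscan4 overexpression had 795 called higher. Leaving out 1 library at a time gave 970 to 1076 higher and 796 to 895 lower under retinoic acid, 5451 to 5667 and 5406 to 5949 with PlaB, 811 to 1065 and 911 to 1145 with Zscan4 overexpression, 3727 to 4071 and 2008 to 2183 for retinoic acid over DMSO, and 10376 to 10812 and 1966 to 3005 for the differences from PlaB and Zscan4. The lone library left in a group was assumed to vary like the other groups.

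Same-numbered replicates showed no shared deviation (correlation 0.00716), and the labels do not say whether the numbers pair the samples. With a replicate block the calls were 1314 higher and 940 lower under retinoic acid. Of 299 named genes, 33 lost their call with the GC content offset, 9 with DESeq2, 11 with library size only and 2 with the replicate block. Across the alternatives other than leaving out a library, glycolysis had 6 to 11 members called lower, collagens 2 to 9, axon guidance 6 to 10, and 8 to 16 KRAB zinc finger and 3 to 9 keratin genes were called higher. Leaving out 1 library gave 9 to 13, 7 to 8, 8 to 11, 13 to 20 and 2 to 4 in the same order. Low genes are limited by depth, since 3 counts are 0.132 to 0.177 CPM.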
